A study of Mus musculus with 10 samples.

Results

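Microglia were profiled here for 33 genes of cholesterol and fatty acid synthesis: 7 that build isoprenoid units from acetyl-CoA through mevalonate, 11 that turn those units into cholesterol, 6 that control or carry sterols, and 9 that make, elongate or desaturate fatty acids. Of the 33, 32 had an array probe assigned to 1 gene alone (Acat2, the cytosolic thiolase that opens the mevalonate route, is not analysed here), out of 19749 genes on the array with such a probe. The brightest probe of each gene was used, and a gene was tested when at least 2 of the 10 arrays exceeded the median of the whole table, which was 5.27 on the log2 scale. That left 28 of the genes among 10792 tested.

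Each array held total RNA of microglia sorted by flow cytometry from male C57BL/6 mice, aged 8 to 12 weeks per the labels, that were wild type (WT) or carried the Trem2-/- genotype. Trem2 encodes a microglial receptor for lipids. The labels name no cell-type restriction of the deletion and not the part of the gene deleted. Cuprizone is a copper chelator whose feeding kills oligodendrocytes and strips myelin, and the diet held 0.2% of it. Each genotype gave 5 libraries: a control without cuprizone, 4 weeks of cuprizone, 12 weeks of cuprizone, and 2 in which normal food was given for 2 weeks after each of those feeding times, called recovery here. The 6 groups are therefore WT control (1 library), WT cuprizone (2), WT recovery (2), Trem2-/- control (1), Trem2-/- cuprizone (2) and Trem2-/- recovery (2). The labels do not say whether a library came from 1 mouse or from a pool. The p-values thus measure only the spread between these libraries, which may in part be technical. In comparisons of the 6 group means, that spread comes from how the 4-week and 12-week libraries of a group differ, and so holds feeding time. In bulk samples, fewer cells of a type and less RNA per cell cannot be told apart.

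Cells make cholesterol and fatty acids from acetyl-CoA under the control of the SREBP transcription factors, which are made as membrane proteins of the endoplasmic reticulum. When membrane sterol is scarce, the escort protein Scap carries SREBP to the Golgi, where it is cut and freed to enter the nucleus and switch on the synthesis genes. When sterol is plentiful, the Insig proteins hold Scap back, and oxysterols made from cholesterol switch on export genes through the LXR receptors. SREBP2 (Srebf2) acts mainly on cholesterol genes and SREBP1 (Srebf1) mainly on fatty acid genes. Myelin is rich in cholesterol, so microglia that clear its debris take up large amounts of sterol that they must store or export.

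SREBPs bind sterol regulatory elements and some E-boxes, commonly beside CCAAT boxes of NF-Y and GC boxes of Sp1. RefSeq promoter windows of build GRCm38.p6, from 250 bases before to 50 bases after a gene's start, were held for 26 of the 33 genes, in 34 windows. Letters were searched on both strands, and no motif match in these genes shared a base with a match of a different motif (0 pairs). The sterol regulatory element was searched as TCACNCCAC, where N is any base. It was in 1 of the 26 genes, Hmgcs1, against 1.44% of all genes with a window of the same length. The E-box CACGTG was in 5 (19.2%; Hsd17b7, Sc5d, Dhcr7, Insig1 and Scap) against 8.09%, and TCACNTGA in 1, Insig2, against 4.78%. CCAAT was in 21 (80.8%) against 41.06%, and GGGCGG in 22 (84.6%) against 38.2%. These matches are a description of the letters in the windows, without a test. Shown are the stretch of Hmgcs1, the mevalonate-route synthase with the only sterol element match, and the 150 bases before the start of Insig1 and Msmo1, the genes that passed a test, of Cyp51, a neighbour of Msmo1 in the route, and of Srebf2, the gene whose WT and Trem2-/- libraries did not overlap. All read 5′ to 3′ on the gene's strand. Capitals mark the sterol element in Hmgcs1, and E-box, CCAAT and GGGCGG letters, on either strand, in the others.
Hmgcs1 (chr13:119690174-119690262, plus strand): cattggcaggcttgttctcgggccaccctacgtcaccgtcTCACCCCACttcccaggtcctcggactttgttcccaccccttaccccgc
Insig1 (chr5:28071262-28071411, plus strand): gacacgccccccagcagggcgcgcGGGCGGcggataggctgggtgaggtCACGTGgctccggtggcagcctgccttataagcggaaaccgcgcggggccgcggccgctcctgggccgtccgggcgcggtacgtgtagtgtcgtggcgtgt
Msmo1 (chr8:64733579-64733728, minus strand): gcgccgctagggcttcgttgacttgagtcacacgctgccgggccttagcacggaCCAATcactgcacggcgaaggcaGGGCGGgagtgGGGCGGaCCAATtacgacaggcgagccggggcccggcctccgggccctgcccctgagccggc
Cyp51 (chr5:4104698-4104847, minus strand): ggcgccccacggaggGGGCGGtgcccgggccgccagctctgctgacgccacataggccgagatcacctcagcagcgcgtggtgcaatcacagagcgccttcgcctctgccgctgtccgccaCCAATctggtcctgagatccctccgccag
Srebf2 (chr15:82147119-82147268, plus strand): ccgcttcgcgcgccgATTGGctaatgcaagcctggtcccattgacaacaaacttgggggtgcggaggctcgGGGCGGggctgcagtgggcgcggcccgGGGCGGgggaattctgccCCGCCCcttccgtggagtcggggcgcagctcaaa
The Hmgcs1 element starts 137 bases before the gene's start. Insig1 has 1 E-box in its stretch and Msmo1 has 2 CCAAT boxes, each with a GC box nearby.

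The arrays were alike in scale, with median linear intensities of 37.6 to 39.3. Trem2 matched the labels, between 10.66 and 10.81 on the log2 scale in WT and between 7.26 and 7.85 in Trem2-/- microglia. Of 10 microglia markers, 9 were on the array and all 9 exceeded the table median in every library, while 6 of 9 measured oligodendrocyte markers lay below it in every library. The oligodendrocyte markers Mbp (5.89 to 6.71) and Cnp (6.77 to 7.61) exceeded it in every library. The submitters' sample numbers form a run of 6 arrays, holding both controls and the 4-week libraries, followed by another of 4 arrays with the 12-week libraries, so that feeding time and run cannot be told apart. The summed linear intensity of 10 neutrophil markers was 4709 to 14176 in the first run and 231 to 384 in the second. For the Trem2-/- cuprizone library titled 12 weeks, the time label reads 4 weeks; the title was followed. Its part in the results is given where it changed one.

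Across the 10 libraries the synthesis genes varied about as much as other genes. Their range from lowest to highest library had a median of 0.74 log2 units against 0.68 for all genes tested, and it exceeded 1 in 5 of 28 (17.9%; Msmo1, Acaca, Scd1, Scd2 and Dhcr7) against 19.1%. The 4-week WT cuprizone library was the highest of the 10 for 7 of the 28 (Pmvk, Ebp, Dhcr7, Fasn, Acaca, Scd2 and Fads1), and for 15.8% of all genes. Of the 4 genes that did not pass the filter on dim values, the lanosterol cyclase Lss (4.37 to 4.94), the acetyl-CoA synthetase Acss2 (4.24 to 4.83) and the desaturase Fads2 (4.51 to 5.12) stayed under the table median in all 10 libraries. These genes were left out of the main tests, and at such levels a difference between groups may go undetected.

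**Figure D1:**
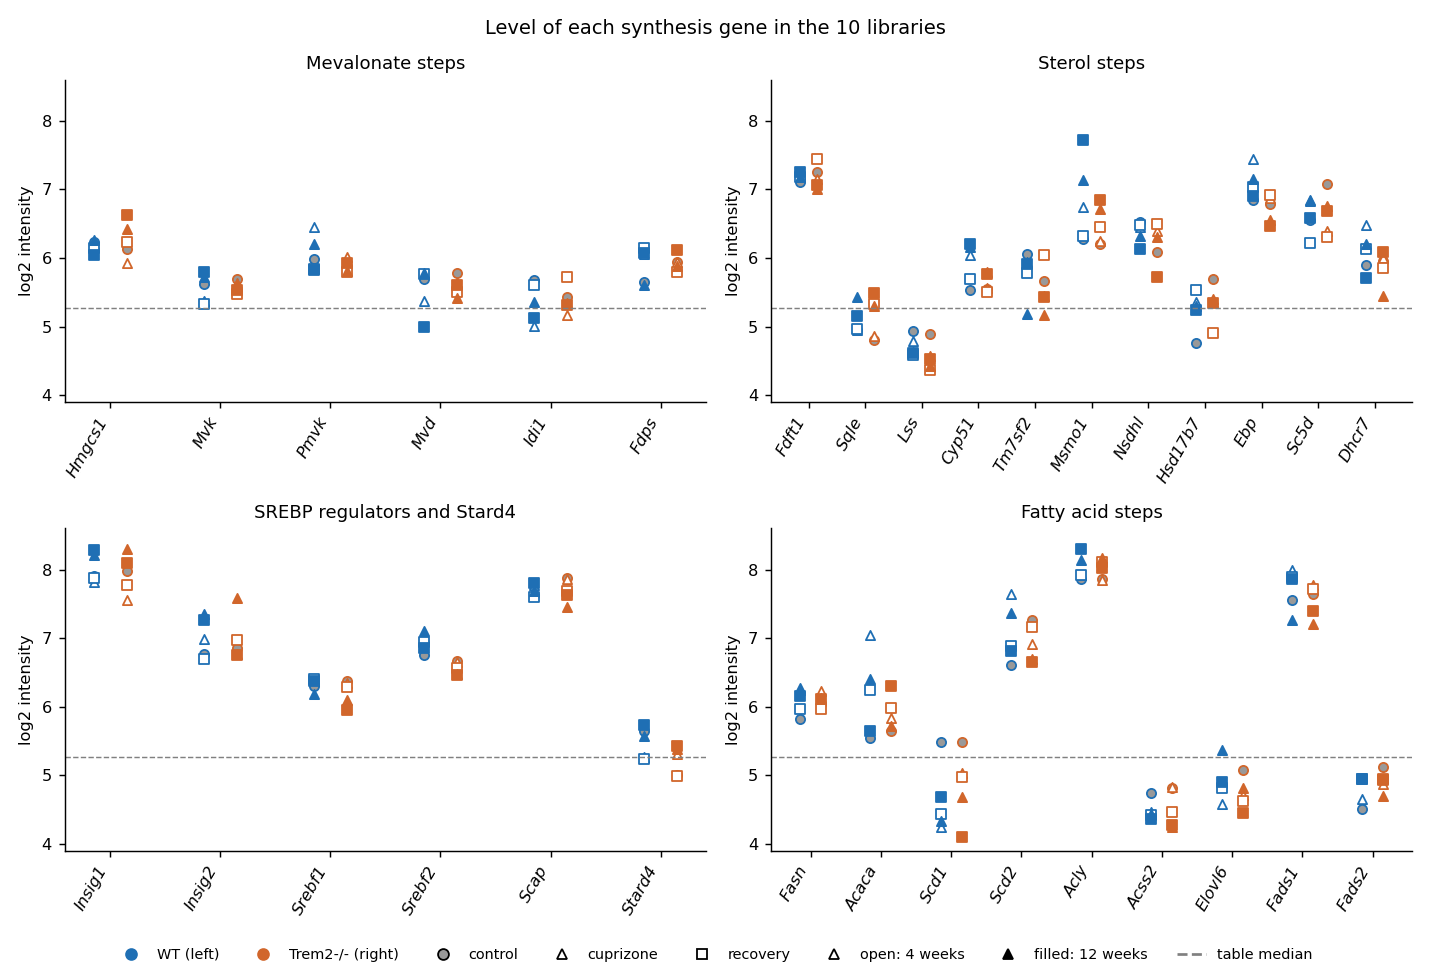
Log2 intensity (vertical axis) of the 32 measured synthesis genes, in panels by role, with 1 point per library, WT in blue on the left and Trem2-/- in orange on the right of each gene. Circles are controls, triangles cuprizone and squares recovery, open for 4 and filled for 12 weeks of feeding. The dashed line is the table median of 5.27, which Lss, Acss2 and Fads2 do not reach. Levels of different genes come from different probes and are not comparable.

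The mevalonate genes spanned 0.46 to 0.78 log2 units across the libraries, near the 0.68 of all genes. Hmgcs1, which makes HMG-CoA, ranged from 5.93 to 6.63. The kinases Mvk and Pmvk ranged from 5.33 to 5.79 and from 5.80 to 6.45, and the decarboxylase Mvd from 5.0 to 5.78. The farnesyl diphosphate synthase Fdps ranged from 5.60 to 6.14. The isomerase Idi1 ranged from 5.01 to 5.72 and exceeded the table median in 7 of 10 libraries. A second Idi1 probe, below the table median in all 10 libraries, gave the opposite sign: cuprizone minus control was -0.50 by the first probe and 0.64 by the second in WT cells, and -0.17 and 0.53 in Trem2-/- cells. No direction is therefore given for Idi1, which counts of genes by role include by its first probe unless stated.

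Among the sterol genes, Msmo1, the monooxygenase that removes methyl groups from the sterol ring, had the widest range of all. Msmo1 stood at 6.28 in the WT control, 6.75 and 7.14 after 4 and 12 weeks of cuprizone, and 6.32 and 7.72 in recovery from them. In Trem2-/- cells it stood at 6.21 in the control, 6.25 and 6.71 on cuprizone and 6.45 and 6.84 in recovery. The 12-week library was the higher of each pair, and the highest value was the WT 12-week recovery library. That library also had the highest summed linear intensity of oligodendrocyte markers, 445 against 291 to 351 in the others, and the part of these markers in its Msmo1 value was not tested. Ebp, the sterol isomerase, was at 6.85 in the WT control, 7.44 and 7.15 on cuprizone and 7.03 and 6.90 in recovery. In Trem2-/- cells Ebp was at 6.79, then 6.87 and 6.56, then 6.92 and 6.46. Each Trem2-/- value of Ebp lay below the WT value of the same diet, though the genotypes overlapped as groups. 

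Dhcr7, the reductase of the last step to cholesterol, was at 5.90 in the WT control, 6.48 and 6.21 after 4 and 12 weeks of cuprizone and 6.13 and 5.71 in recovery, against 5.95, then 6.00 and 5.45, then 5.86 and 6.09 in Trem2-/- cells. Its cuprizone libraries did not overlap between genotypes and its recovery libraries did. The share of all genes with such a separation of 2 against 2 libraries was not counted. Sc5d, the sterol desaturase, measured 6.55 in the WT control, 6.84 and 6.83 on cuprizone and 6.22 and 6.58 in recovery. Its Trem2-/- values were 7.08 in the control, the highest of all, 6.40 and 6.76 on cuprizone and 6.30 and 6.68 in recovery. Tm7sf2, a sterol reductase, was at 6.06 in the WT control, 5.94 and 5.19 on cuprizone and 5.78 and 5.91 in recovery, and at 5.67, 5.44 and 5.17, and 6.05 and 5.43 in the same order in Trem2-/- cells. Both 12-week cuprizone libraries were low.

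Nsdhl, the decarboxylating dehydrogenase that works beside Msmo1, measured 6.53 in the WT control, 6.45 and 6.32 on cuprizone and 6.48 and 6.13 in recovery. In Trem2-/- cells it measured 6.09, then 6.40 and 6.31, then 6.49 and 5.73. The WT control was the highest library and the Trem2-/- 12-week recovery library the lowest. Hsd17b7, the keto reductase of the same complex, had 4.76 in the WT control, 5.36 and 5.30 on cuprizone and 5.54 and 5.24 in recovery, and 5.70 in the Trem2-/- control, 5.36 and 5.40 on cuprizone and 4.91 and 5.34 in recovery. The controls of the 2 genotypes were the lowest and the highest of its 10 libraries, 0.94 apart and with no replicate, so each Hsd17b7 difference from a control rests on 1 array. The squalene synthase Fdft1 ranged from 7.01 to 7.44, and its probes differed in sign for cuprizone minus control, at 0.09 and -0.06 in WT and -0.18 and 0.36 in Trem2-/- cells. The squalene epoxidase Sqle ranged from 4.80 to 5.49, and the lanosterol demethylase Cyp51 from 5.50 to 6.21. Only 4 libraries of Sqle exceeded the table median, namely both 12-week cuprizone libraries and both Trem2-/- recovery libraries. Sqle thus passed the filter through diet libraries alone, mostly those of 12 weeks.

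The regulators spanned 0.42 (Scap) to 0.87 (Insig2) log2 units across the libraries, against a median of 0.68 for all genes. Srebf2 was at 6.75 in the WT control, 7.0 and 7.10 after 4 and 12 weeks of cuprizone and 6.94 and 6.86 in recovery. In Trem2-/- cells it was at 6.67 in the control, 6.65 and 6.48 on cuprizone and 6.57 and 6.47 in recovery. The lowest WT value exceeded the highest Trem2-/- value, by a margin of less than 0.1, and Srebf2 was the only 1 of the 28 whose genotypes did not overlap (3.57%), against 1.0% of all genes. Srebf1 was at 6.31 in the WT control, 6.39 and 6.18 on cuprizone and 6.40 and 6.38 in recovery, and at 6.37, then 6.35 and 6.10, then 6.29 and 5.95 in Trem2-/- cells. Scap stood at 7.63 in the WT control, 7.78 and 7.69 on cuprizone and 7.6 and 7.80 in recovery, and at 7.88, then 7.87 and 7.45, then 7.69 and 7.63 in Trem2-/- cells. The genotypes overlapped on cuprizone for both genes and in recovery for Scap, while the WT recovery libraries of Srebf1 lay above the Trem2-/- ones. How many of all genes were so separated in recovery, with 2 libraries per genotype, was not counted.

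Insig1, a SREBP target that feeds back on Scap, measured 7.90 in the WT control, 7.82 and 8.22 after 4 and 12 weeks of cuprizone and 7.88 and 8.29 in recovery. Its Trem2-/- values were 7.98 in the control, 7.55 and 8.30 on cuprizone and 7.77 and 8.09 in recovery. All 4 libraries titled 12 weeks lay above the other 6. Insig1 was the only 1 of 28 with that separation in either direction (3.57%), against 18.9% of all genes. Its relative Insig2 had 6.77 in the WT control, 6.99 and 7.35 on cuprizone and 6.70 and 7.27 in recovery, and 6.85, then 6.77 and 7.58, then 6.97 and 6.76 in Trem2-/- cells. There the Trem2-/- 12-week recovery library was low and the others titled 12 weeks were high. Stard4, a cytosolic sterol carrier and SREBP target, ranged from 4.99 to 5.73 with 6 libraries above the table median.

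Of the fatty acid genes, Acaca, the acetyl-CoA carboxylase that makes malonyl-CoA, measured 5.55 in the WT control, 7.05 and 6.41 after 4 and 12 weeks of cuprizone and 6.24 and 5.65 in recovery. Its Trem2-/- values were 5.65 in the control, 5.83 and 5.72 on cuprizone and 5.98 and 6.31 in recovery. Both WT cuprizone libraries were above every other library. Scd2, a desaturase that makes monounsaturated fatty acids, was at 6.61 in the WT control, 7.65 and 7.36 on cuprizone and 6.88 and 6.81 in recovery, against 7.26, then 6.92 and 6.69, then 7.16 and 6.65 in Trem2-/- cells. The WT cuprizone libraries were again the highest, and the WT control was the lowest of all. The share of all genes with both WT cuprizone libraries above every other was not counted. 

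Scd1, a paralog with the same activity, was at 5.49 in the WT control, 4.24 and 4.34 on cuprizone and 4.43 and 4.68 in recovery, and at 5.48, then 5.03 and 4.68, then 4.98 and 4.10 in Trem2-/- cells. Scd1 passed the filter only through the 2 controls, so it had to be lower in the diet groups. All 8 diet libraries lay below the table median, where differences may be compressed. The elongase Elovl6 was below the filter, at 4.84 in the WT control, 4.58 and 5.37 on cuprizone and 4.82 and 4.90 in recovery, and at 5.08, then 4.72 and 4.82, then 4.62 and 4.45 in Trem2-/- cells. Only the WT 12-week cuprizone library of Elovl6 exceeded the table median. The fatty acid synthase Fasn ranged from 5.82 to 6.27, the citrate lyase Acly from 7.85 to 8.30 and the desaturase Fads1 from 7.21 to 7.99.

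**Figure D2:**
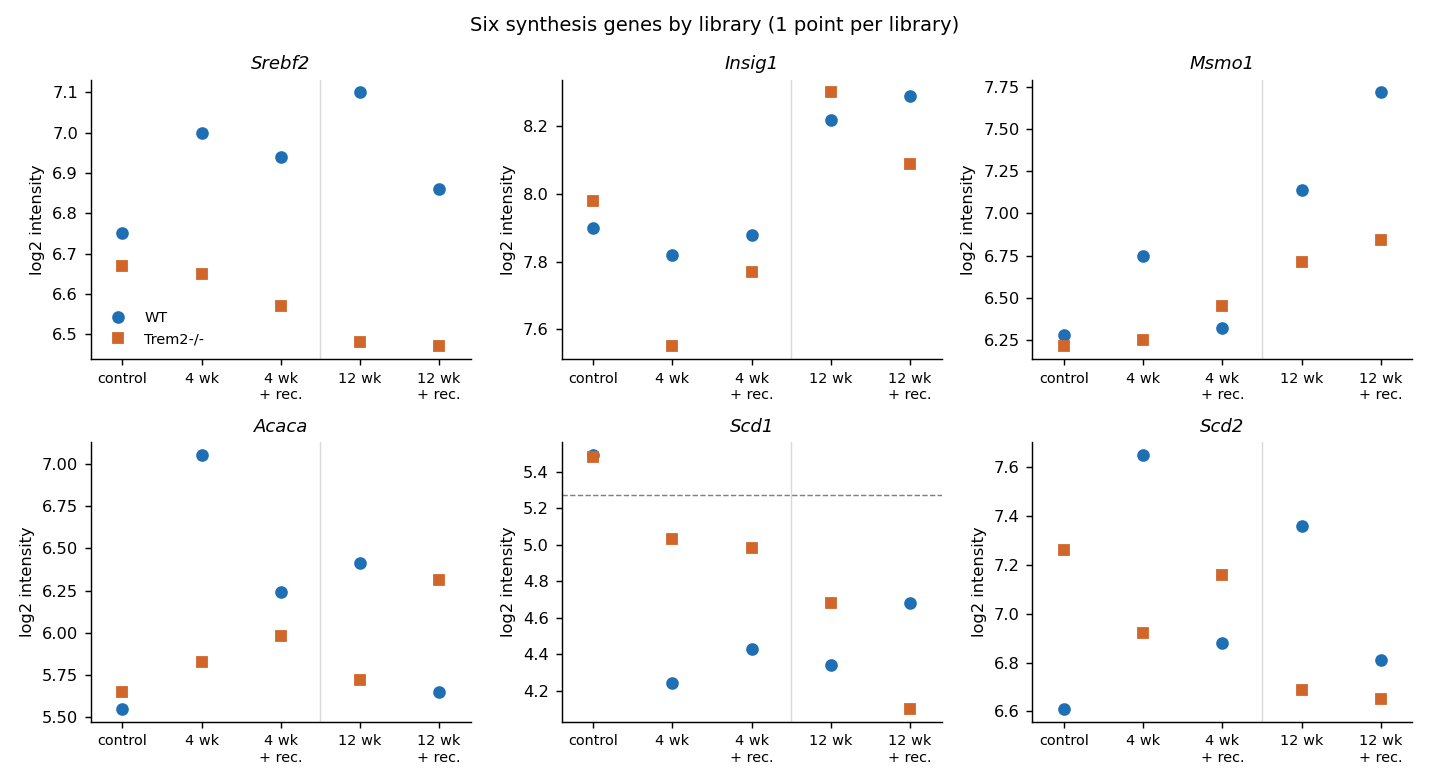
Log2 intensity (vertical axes, which differ between panels and do not start at 0) of Srebf2, Insig1, Msmo1, Acaca, Scd1 and Scd2 in each library, by diet (horizontal axis; rec. is recovery, wk is weeks of cuprizone), with WT as blue circles and Trem2-/- as orange squares. The grey line parts the first run of sample numbers from the second, and the dashed line in the Scd1 panel is the table median of 5.27. WT exceeds Trem2-/- in all 5 conditions for Srebf2, and the 4 libraries right of the line are the highest for Insig1.

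In WT microglia on cuprizone, 19 of the 28 synthesis genes were higher than in the control and none passed the test. Values are log2 differences ± SE of the limma fit, with p-values adjusted over all 10792 genes and 2 cuprizone libraries set against the 1 control. The median was 0.17, against 0.01 for all genes tested, of which 51.3% were higher. By role, 8 of 10 sterol genes (median 0.36), 5 of 6 fatty acid genes (0.30), 4 of 6 regulators (0.11) and 2 of 6 mevalonate genes (-0.04) were higher. The median was 0.18 in the 4-week library, from the same run as the control, and 0.25 in the 12-week library. Among all genes 16 were called, or 0.148%. At an unadjusted p under 0.05 there were 3 of 28 (10.71%), namely Acaca, Scd2 and Scd1, against 471 genes (4.36%). Scd1 passed the filter through the controls, and without it there were 2 of 27 (7.41%).

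Acaca was higher in WT cuprizone cells by 1.18 ± 0.35 (adjusted p = 0.699) and its second, dimmer probe by 1.47. Scd2 was higher by 0.90 ± 0.28 (adjusted p = 0.759), and Scd1, whose inclusion the control fixed, was at -1.21 ± 0.36 (adjusted p = 0.699). Each had the same sign in both cuprizone libraries. Among sterol genes the values were 0.67 ± 0.52 for Msmo1, 0.57 ± 0.26 for Hsd17b7, 0.56 ± 0.28 for Cyp51, 0.45 ± 0.28 for Ebp and 0.44 ± 0.31 for Dhcr7, each higher in both libraries and none past the threshold (adjusted p = 0.998). Fasn measured 0.43 ± 0.22 and Srebf2 0.30 ± 0.22, while Srebf1 (-0.02 ± 0.25) and Hmgcs1 (-0.01 ± 0.28) were near 0 with 95% intervals of -0.59 to 0.55 and -0.66 to 0.64. These intervals are not adjusted for the number of genes tested, and a call needed more than a difference of that size. Acaca, at 1.18, was not called. Differences in either direction beyond those bounds could therefore also have gone uncalled.

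**Figure D3:**
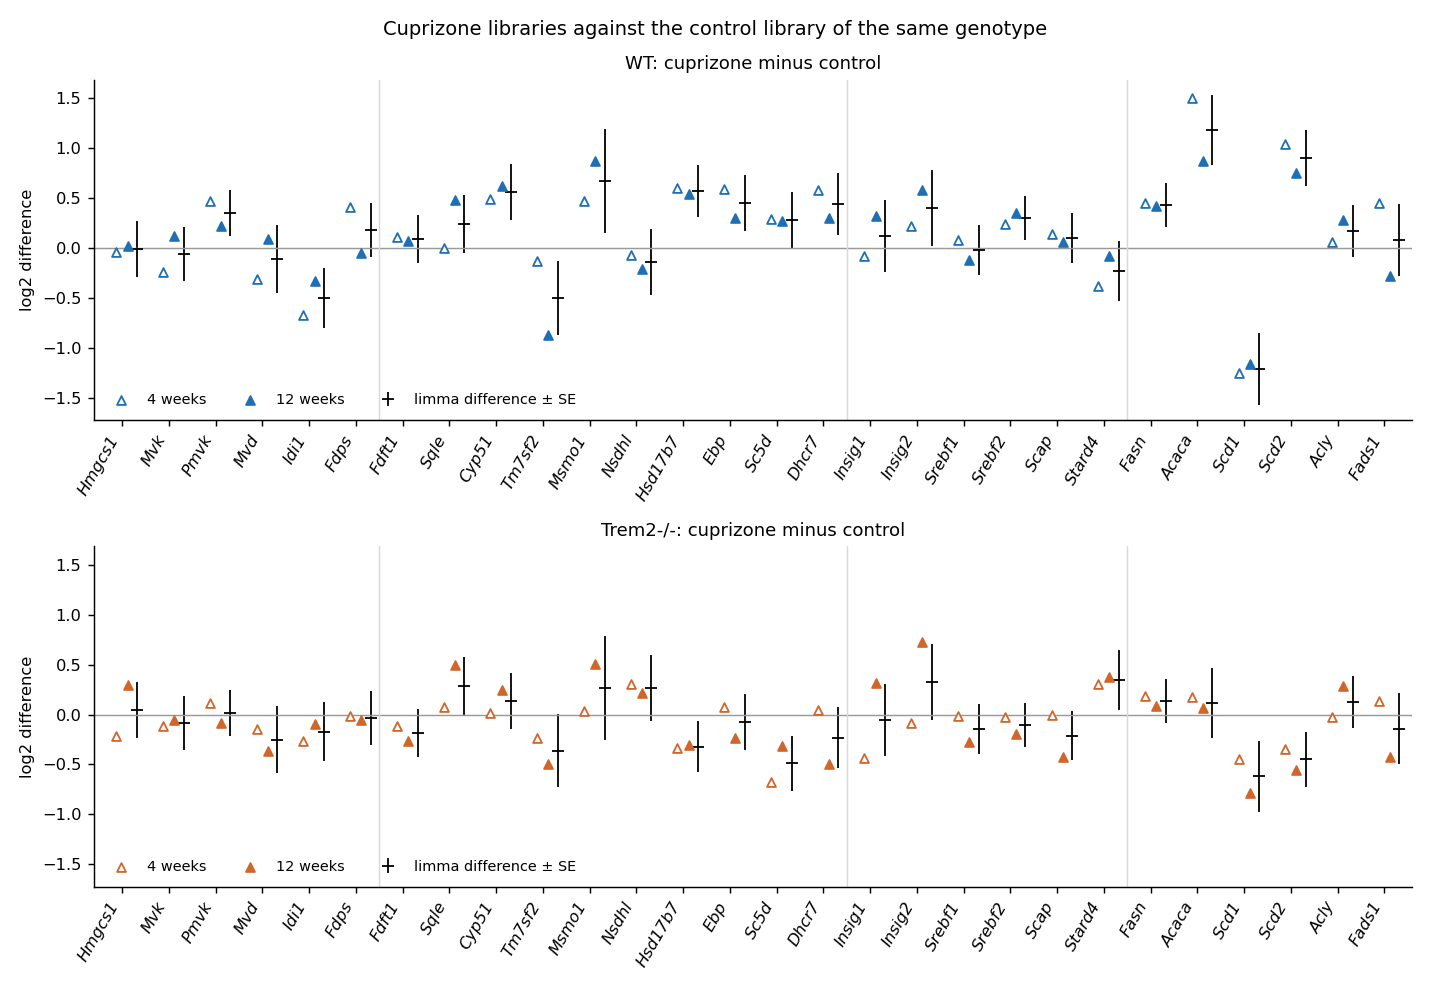
Log2 difference (vertical axis) of the cuprizone libraries from the 1 control library of the same genotype, for the 28 tested genes grouped by role (mevalonate, sterol, regulators, fatty acid, parted by grey lines), WT above and Trem2-/- below. Open triangles are 4-week and filled triangles 12-week libraries, and the bars are the limma difference ± SE. In WT cells 19 of 28 lie above 0, led by Acaca at 1.18, and in Trem2-/- cells 11 of 28 do.

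In Trem2-/- microglia the same diet left 11 of 28 above the control. Their median was -0.08, and 0 were called. All genes had a median of 0.01, with 51.4% higher and 0.0% called. At an unadjusted p under 0.05 there were 0 of the 28 and 100 of all genes (0.93%). Scd1 was at -0.62 ± 0.36, Sc5d at -0.49 ± 0.28 and Scd2 at -0.45 ± 0.28, while Acaca was at 0.12 ± 0.35 and Stard4 at 0.35 ± 0.30 (adjusted p = 0.999 for each). Sterol genes had 4 of 10 higher (median -0.13) and fatty acid genes 3 of 6 (-0.01). The 95% interval of Acaca in these cells, -0.67 to 0.92, reaches most of the way to the WT value.

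The difference between those responses was negative for 21 of 28, while 50.2% of all genes had a positive one. Its median over the 28 was -0.22 against 0.00 for all genes, and none of the 28 passed. Scd2 had the largest, at -1.34 ± 0.39 (95% interval -2.25 to -0.44, unadjusted p = 0.0087, adjusted p = 1.0), followed by Acaca at -1.06 ± 0.49 and Hsd17b7 at -0.88 ± 0.37. These 3 were negative at both feeding times. The control arrays enter each value: the Trem2-/- control exceeded the WT control by 0.65 at Scd2, 0.94 at Hsd17b7 and 0.10 at Acaca. Of all genes 1 (0.00927%) was called, and 2 of the 28 against 159 of all (1.47%) had an unadjusted p under 0.05. In 6 of 28 genes (21.4%; Fdft1, Hsd17b7, Sc5d, Srebf2, Scap and Scd2) both WT cuprizone libraries were above and both Trem2-/- cuprizone libraries below their own control, against 5.48% of all genes. The opposite held for 2 (7.14%; Nsdhl and Stard4) against 6.15%. Both counts rest on 1 control per genotype. Between the controls, Trem2-/- minus WT was 0.52 at Sc5d, 0.24 at Scap, 0.15 at Fdft1 and -0.08 at Srebf2, and -0.43 at Nsdhl and -0.65 at Stard4. At 4 weeks the Trem2-/- cuprizone differences from control were only -0.02 at Srebf2 and -0.0 at Scap. The second Fdft1 probe had the reverse signs, -0.06 in WT and 0.36 in Trem2-/- cells. Border macrophage markers moved with some of these libraries. The summed linear intensity of 10 of them was 2494 in the WT control and 5522 and 2463 after 4 and 12 weeks of cuprizone, and 1870, then 4989 and 2512 in Trem2-/- cells. The part of these markers in the synthesis genes' values was not tested.

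On cuprizone, Trem2-/- cells had lower values than WT cells for 22 of 28 synthesis genes, with a median of -0.09 against 0.00 for all genes, and none passed. Of all genes 50.2% were higher in Trem2-/- cells. By role, 9 of 10 sterol genes (median -0.25), 5 of 6 regulators (-0.07), 5 of 6 fatty acid genes (-0.11) and 3 of 6 mevalonate genes (0.00) were lower. This comparison uses no control array. Acaca was at -0.95 ± 0.28 (adjusted p = 0.624), Scd2 at -0.70 ± 0.23 (adjusted p = 0.748), Dhcr7 at -0.62 ± 0.25 (adjusted p = 1.0), Ebp at -0.58 ± 0.23 (adjusted p = 1.0) and Srebf2 at -0.49 ± 0.18 (adjusted p = 0.952). The Dhcr7 difference was -0.34 without the 12-week and -0.89 without the 4-week Trem2-/- cuprizone library. In all 5 the Trem2-/- library was the lower at both feeding times. Scd1, at 0.57 ± 0.29, had the largest positive value. Of all genes 36 (0.334%) were called, and an unadjusted p under 0.05 was reached by 5 of 28 (17.86%) against 482 genes (4.47%). The median was -0.17 at 4 weeks and -0.10 at 12 weeks.

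In recovery, 18 of 28 were lower in Trem2-/- cells, with a median of -0.05 (-0.13 to -0.01 with 1 library left out) and 0 called, against 3 of all genes (0.0278%). Of all genes 48.8% were higher in Trem2-/- cells, with a median near 0. An unadjusted p under 0.05 was reached by 0 of the 28 and by 207 of all genes (1.92%). All 6 regulators were lower (median -0.21), among them Srebf2 at -0.38 ± 0.18 and Srebf1 at -0.27 ± 0.20, while Hmgcs1 and Sqle were at 0.34 ± 0.23 and 0.34 ± 0.24 (adjusted p = 1.0 for each). The untested difference between the 2 control arrays had a median of 0.06, with 17 of 28 higher in the Trem2-/- control, against 48.8% of all genes.

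Matched over the 5 diet conditions, the largest genotype differences relative to their errors were those of Srebf2, Ebp and Cyp51, and none of the 28 passed, against 28 of all genes (0.259%). This comparison contains the arrays of those on cuprizone and in recovery and is not independent of them. Srebf2 was lower in Trem2-/- cells in 5 of 5 conditions, by 0.08 in the controls and by 0.35, 0.37, 0.62 and 0.39 in the 4-week cuprizone, 4-week recovery, 12-week cuprizone and 12-week recovery pairs. The fitted difference was -0.36 ± 0.10 (95% interval -0.58 to -0.14, adjusted p = 0.211). Ebp was lower in 5 of 5 conditions, at -0.35 ± 0.11 (adjusted p = 0.264), with -0.06 in the controls and -0.11 in the 4-week recovery pair. Cyp51 was at -0.30 ± 0.10 (adjusted p = 0.318), lower in 4 of 5 and level in the controls. Msmo1 (-0.35 ± 0.14, adjusted p = 0.404) and Stard4 (-0.27 ± 0.11, adjusted p = 0.41) were each lower in 4 of 5.

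Across the list, 17 of 28 were lower, with a median of -0.06 against 0.00 for all genes. Of all genes 49.5% were higher in Trem2-/- cells. The 5 named genes were those with an unadjusted p under 0.05 (17.86%), against 1162 genes (10.77%). Of the 5 mevalonate genes other than Idi1, 4 were higher in Trem2-/- cells (median 0.03) and Pmvk was lower, and of the sterol genes 7 of 10 were lower (median -0.20). The difference between the roles was not tested. Genes lower in Trem2-/- cells in 5 of 5 conditions were 2 of 28 (Ebp and Srebf2; 7.14%) against 6.1% of all genes, and genes higher in 5 of 5 were 0 of 28 against 4.77%.

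**Figure D4:**
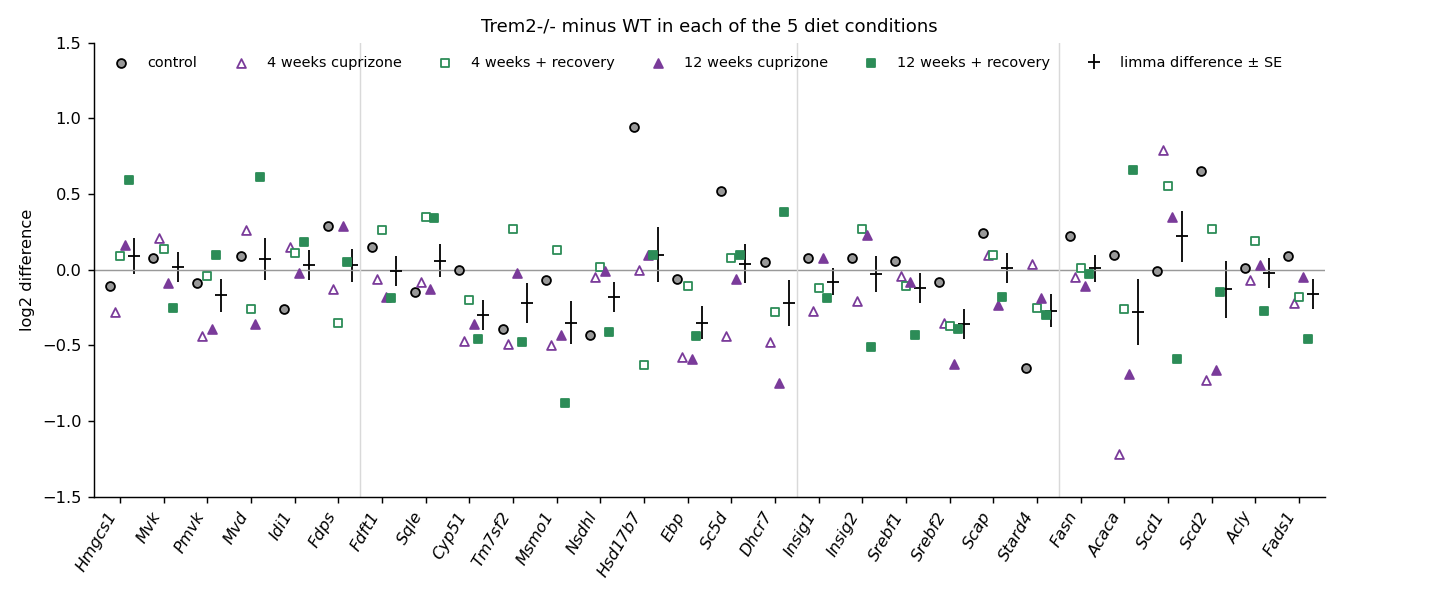
Log2 difference, Trem2-/- minus WT (vertical axis), for the 28 tested genes grouped by role, with 1 point for each of the 5 diet conditions and bars for the limma difference ± SE over them. Srebf2 and Ebp lie below 0 in 5 of 5 conditions. The widest spread between conditions is that of Acaca, Hsd17b7, Scd1, Scd2 and Dhcr7.

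After the return to normal food, WT values of Acaca and Scd2 lay between those on cuprizone and that of the control, and no synthesis gene passed a test. In WT recovery against WT cuprizone, Acaca was at -0.79 ± 0.28, Scd2 at -0.66 ± 0.23 and Pmvk at -0.50 ± 0.19, each lower at both feeding times (adjusted p = 0.999). Of the 28, 15 were lower and the median was -0.06, with 0 called, while of all genes 49.7% were higher and 0.0% called. At an unadjusted p under 0.05 there were these 3 of 28 (10.71%) against 295 genes (2.73%). In Trem2-/- cells 14 of 28 were lower and the median was 0.00, led by Tm7sf2 at 0.43 ± 0.30, Acaca at 0.37 ± 0.28 and Sqle at 0.32 ± 0.24 (adjusted p = 1.0). None of the 28 was called or reached an unadjusted p under 0.05, against 0.0% and 64 genes (0.59%) of all.

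The genotypes differed in this step by 1.15 ± 0.40 at Acaca and 0.76 ± 0.32 at Scd2, positive at both feeding times and not past the threshold (adjusted p = 1.0). The median over the 28 was 0.08 with 17 positive, 0 called and 2 at an unadjusted p under 0.05 (7.14%), against 49.6% positive, 0.0% called and 161 genes (1.49%) of all. It was -0.01 without the 4-week WT recovery library. The same WT cuprizone libraries enter this value and those of cuprizone against control, so the values are not independent.

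Compared with the control arrays, which the cuprizone comparisons share, WT recovery had 18 of 28 higher (median 0.11, 0 called, 0.0% of all genes) and Trem2-/- recovery 14 of 28 (median near 0, 0 called, 0.0% of all genes). Of all genes 49.3% were higher in WT recovery and 49.5% in Trem2-/- recovery. Hsd17b7 was at 0.63 ± 0.26 in WT and -0.57 ± 0.26 in Trem2-/- cells, which again rests on controls 0.94 apart. Msmo1 was at 0.74 ± 0.52 and Cyp51 at 0.41 ± 0.28 in WT recovery, and Sqle at 0.61 ± 0.29 in Trem2-/- recovery (adjusted p = 0.999 or 1.0 for each). The filter favoured this Sqle difference, since Sqle passed only through diet libraries, among them both Trem2-/- recovery libraries. Scd1 was at -0.93 ± 0.36 and -0.94 ± 0.36, in the direction that its filter fixed. An unadjusted p under 0.05 was reached by 2 of 28 (7.14%) in WT and 1 (3.57%) in Trem2-/- cells, against 242 (2.24%) and 151 (1.40%) of all genes. Without Scd1, whose inclusion the controls fixed, these were 1 of 27 (3.7%; Hsd17b7) and 0 of 27.

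Feeding time, with which the run of arrays changed, gave the only calls. Libraries titled 12 weeks were higher than those titled 4 weeks at Insig1, by 0.47 ± 0.12 (95% interval 0.21 to 0.73, adjusted p = 0.0205), and at Msmo1, by 0.66 ± 0.17 (0.28 to 1.05, adjusted p = 0.0256), each in 4 of 4 pairs. These are 2 of 28, while 2194 of all genes (20.3%) were called, so the synthesis genes did not stand out in number. Insig1 rose by 0.40 in both WT pairs and by 0.75 and 0.32 in the Trem2-/- cuprizone and recovery pairs. Msmo1 rose by 0.39 and 1.40 in the WT cuprizone and recovery pairs and by 0.46 and 0.39 in the Trem2-/- pairs. Fads1, which desaturates polyunsaturated fatty acids, was at -0.41 ± 0.13 and just missed the threshold (adjusted p = 0.0567).

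Neither call held in every fit with 1 library left out, which takes its pair out of the comparison and leaves 2 of 3 residual degrees of freedom. Insig1 was at 0.49 (adjusted p = 0.0596) without either WT cuprizone library, 0.38 (adjusted p = 0.0675) without either Trem2-/- cuprizone library and 0.52 (adjusted p = 0.0522) without either Trem2-/- recovery library. Msmo1 was at 0.41 (adjusted p = 0.059) without either WT recovery library, 0.73 (adjusted p = 0.0534) without either Trem2-/- cuprizone library and 0.75 (adjusted p = 0.0551) without either Trem2-/- recovery library. The number called was therefore 0 without a Trem2-/- cuprizone library, among them the one with conflicting time labels, and 1 without a WT cuprizone or Trem2-/- recovery library. Without a WT recovery library it was 3, with Insig1, Fads1 (-0.53, adjusted p = 0.0306) and Tm7sf2 (-0.55, adjusted p = 0.0311). Without a Trem2-/- recovery library the 1 called was Insig2 (0.58, adjusted p = 0.0411). Neutrophil markers moved with the same split of libraries: their median log2 level was 7.44 to 9.69 in the first run and 4.39 to 4.87 in the second, and none of the 10 exceeded the table median in all libraries. The summed intensity of the border macrophage markers was 4805 to 5522 in the 4-week cuprizone and recovery libraries and 2237 to 2512 in the 12-week ones. That of 6 monocyte markers was 256 to 431 in the first run and 141 to 193 in the second. The part of these markers in the calls was not tested.

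The sterol genes had no common direction with feeding time. Of 10 sterol genes 5 were higher and 5 lower, among them Sqle at 0.31 ± 0.11 (adjusted p = 0.0772), Cyp51 at 0.28 ± 0.11 (adjusted p = 0.101), Tm7sf2 at -0.38 ± 0.15 (adjusted p = 0.103) and Nsdhl at -0.34 ± 0.13 (adjusted p = 0.104). Sqle passed the filter mostly through 12-week libraries, so its higher 12-week values were partly built in. Among regulators Stard4 was at 0.32 ± 0.12 (adjusted p = 0.0755), Insig2 at 0.38 ± 0.16 (adjusted p = 0.114) and Srebf2 at -0.06 ± 0.11. Over the 28 the median was -0.07, with 12 higher, against -0.04 and 44.9% for all genes. In 6 (21.4%; Mvk, Sqle, Cyp51, Msmo1, Insig1 and Stard4) the 12-week library was higher in 4 of 4 pairs, against 17.3% of all genes, and in 5 (17.9%; Nsdhl, Ebp, Srebf1, Scd2 and Fads1) it was lower in 4 of 4, against 24.5%. Both shares lie near those of all genes.

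Whether feeding time acted differently in the genotypes was tested as an interaction over the 8 diet arrays. None of the 28 passed, with a median of -0.10 and 9 positive (of all genes 0.0% called and 53.3% positive). The median was 0.02 without either 4-week recovery library. The largest by its error was Scd1 at -0.79 ± 0.32 (adjusted p = 0.999), with all its values below the table median; it was -0.32 without either 12-week recovery library and -1.26 without either 12-week cuprizone library. An unadjusted p under 0.05 was reached by 1 of 28 (3.57%) against 464 genes (4.30%).

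**Figure D5:**
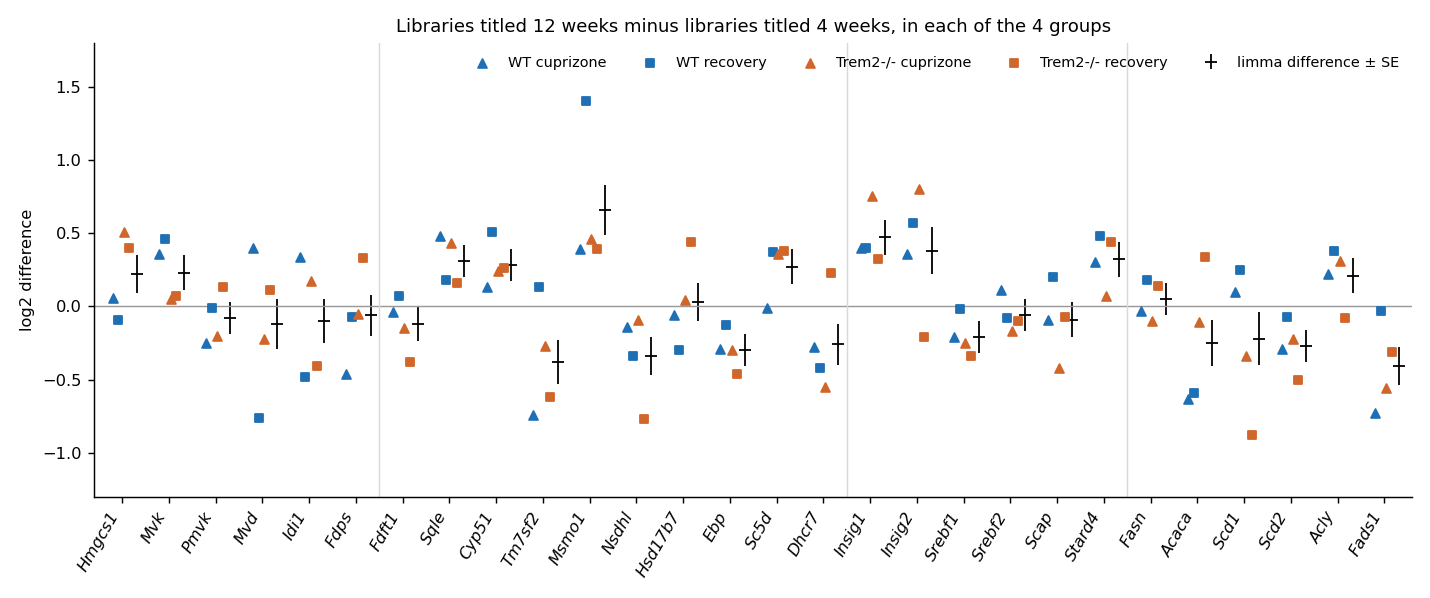
Log2 difference of the library titled 12 weeks from the one titled 4 weeks (vertical axis) in each of the 4 groups with both, for the 28 tested genes grouped by role, with bars for the limma difference ± SE. Insig1 and Msmo1, the genes called, lie above 0 in all 4 pairs. Feeding time and run of sample numbers cannot be told apart here.

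Genes around these pathways were described from lists of other members. Of 23 further genes of the sterol pathway and its control, 14 were tested and the others are not analysed here. None of them was called in a comparison of diet or genotype, and the medians were 0.06 for WT cuprizone, -0.03 for Trem2-/- cuprizone and -0.10 for the matched genotype difference. In WT cuprizone cells the largest by their error were Npc2, the lysosomal sterol carrier (0.39 ± 0.23), the ubiquitin ligase Rnf139 (-0.25 ± 0.31) and the late endosomal sterol transporter Stard3 (-0.35 ± 0.44). With feeding time 1 rose and 4 fell (35.7% of 14, against the 20.3% of all genes). The prenyl synthase Ggps1 rose by 0.53 ± 0.10 (adjusted p = 0.00813), while Stard3 (-0.62 ± 0.12, adjusted p = 0.00723), the electron donor Cyb5a (-0.65 ± 0.13, adjusted p = 0.00832), the endoplasmic reticulum protein Erlin2 and the lysosomal lipase Lipa fell.

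Of 12 genes listed as LXR targets and receptors, which include sterol exporters and oxysterol enzymes, 9 were tested. Apoe, the main lipid carrier secreted by glia, stood at 10.62 in the WT control and 13 and 12.92 on cuprizone, a rise of 2.34 ± 0.29 (adjusted p = 0.0314), and at 10.36, then 11.79 and 11.14 in Trem2-/- cells (1.11 ± 0.29, adjusted p = 0.999). Ch25h, which makes 25-hydroxycholesterol, an oxysterol that blocks SREBP processing, was at 4.26 in the WT control and 8.61 and 8.22 on cuprizone (4.16 ± 0.82, adjusted p = 0.199), and at 4.48, then 4.68 and 5.39 in Trem2-/- cells. The control values of Ch25h lie below the table median, where differences may be compressed. Ch25h passed the filter only through diet libraries, so higher values in some diet libraries than in the controls were built in. In recovery Ch25h was at 5.91 and 7.25 in WT and 4.67 and 6.77 in Trem2-/- cells (-0.86 ± 0.67), and Apoe was at 12.57 and 12.73 against 12.28 and 12.4 (-0.31 ± 0.24, adjusted p = 1.0 for both). On cuprizone the genotypes differed by -3.38 ± 0.67 at Ch25h (adjusted p = 0.134) and -1.5 ± 0.24 at Apoe (adjusted p = 0.0568), neither past the threshold. The exporter Abca1, at -0.54 ± 0.25, was next. With feeding time the oxysterol enzyme Cyp27a1 (-0.80 ± 0.12, adjusted p = 0.00223) and the exporter Abcg1 (-0.51 ± 0.12, adjusted p = 0.0148) fell (22.2% of the 9, against 20.3%). The 9 genes had 7 higher and a median of 0.25 in WT cuprizone cells, against 3 higher and -0.15 in Trem2-/- cells.

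Of 22 other fatty acid genes, 17 were tested and none was called in a comparison of diet or genotype. In WT cuprizone cells the dehydratase of fatty acid elongation Hacd2 was at 0.85 ± 0.27 (adjusted p = 0.809), and the elongases Elovl5 and Elovl1 were at 0.53 ± 0.27 and 0.42 ± 0.21 (adjusted p = 0.998), with 11 of 17 higher and a median of 0.08. In the matched genotype comparison Elovl5 was at -0.33 ± 0.10 (adjusted p = 0.256), the lipase Pnpla2 at -0.26 ± 0.10 and Elovl1 at -0.23 ± 0.10. With feeding time the elongation reductase Tecr (-0.47 ± 0.13, adjusted p = 0.0283) and the transcription factor Mlxipl (-0.38 ± 0.11, adjusted p = 0.0447) fell (11.8% of 17, against 20.3%), and the acyl-CoA synthetase Acsl4 was at 0.31 ± 0.11 (adjusted p = 0.0739).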

How the data were processed

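Total RNA of sorted microglia was measured on 10 single-channel arrays from nanogram amounts of biotin-labelled cRNA, per the labels. The deposited values are linear probe intensity. How the authors corrected, summarized and normalized this intensity is not stated in the labels or headers. Log2 was taken without further scaling. The number of arrays limits the precision.

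Of 24567 probes, 21259 named 1 gene in the platform annotation, 1274 named several and 2034 none. By Entrez identifier 21182 single-gene probes matched the RefSeq table of GRCm38.p6, with 0 symbols changed. The brightest probe per gene was kept, with 888 genes having several. No coordinates of probes were used. Promoter sequences and their coordinates are RefSeq's, of GRCm38.p6.

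Differences were tested by limma 3.58.1, run in R 4.3.3 (linear fits, eBayes, Benjamini-Hochberg over 10792 genes, threshold 0.05). One model fitted the 6 group means (4 residual degrees of freedom), whose spread comes from how the 4-week and 12-week libraries of a group differ, and a lone control is assumed to vary like other groups. Others compared genotypes with the 5 diet conditions as a block (4), and 12 with 4 weeks with the group as a block (3). A further one tested genotype by feeding time (2). The limma step was tested on simulated data. Shares called among all genes stand beside counts of the 28.

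Values in every library were given for members called in a comparison, the 12 with the widest range, and Srebf1, Srebf2, Scap, Insig1 and Insig2. Other lists give counts and the 3 largest by error. The members and lists were chosen with earlier results of these data known. Alternatives were the mean over probes, no filter, median or quantile scaling, 16 added before log2, an intensity trend, titled duration as a block, and each library left out. Some items are not reported here.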

Additional observations from a re-analysis of the deposited data

How the results depend on the processing

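In the 12 comparisons without a called member, the number called stayed 0 under every alternative run. For 12 against 4 weeks it was 2, and 0 to 3 with a library left out. The median difference over the members was -0.06 for WT recovery against cuprizone, and became -0.08 with the mean over probes, -0.07 without the filter, -0.03 after quantile scaling and -0.05 with 16 added before log2. That of the genotype difference in cuprizone response was -0.22, and became -0.19 after quantile scaling and -0.19 with 16 added. The cause was not tested. With 1 library left out, medians ranged from 0.17 to 0.25 for WT cuprizone against control, from -0.09 to -0.02 for Trem2-/- cuprizone against control, from -0.15 to 0.00 for WT recovery against cuprizone, from -0.02 to 0.04 for Trem2-/- recovery against cuprizone, from 0.05 to 0.12 for WT recovery against control, from -0.13 to 0.00 for Trem2-/- recovery against control, from -0.15 to -0.09 for Trem2-/- against WT on cuprizone from -0.26 to -0.20 for the genotype difference in response, from -0.13 to -0.01 for Trem2-/- against WT in recovery, from -0.11 to -0.02 for the matched comparison, from -0.06 to -0.02 for 12 against 4 weeks, from -0.01 to 0.16 for the genotype difference in recovery against cuprizone and from -0.14 to 0.02 for genotype by feeding time. Some named values with an unadjusted p under 0.05 moved by over 1.5 times. For 12 against 4 weeks they were Msmo1 (0.41 to 0.75), Insig2 (0.24 to 0.58), Nsdhl (-0.42 to -0.19) and Tm7sf2 (-0.55 to -0.25). For the matched comparison they were Msmo1 (-0.47 to -0.22) and Stard4 (-0.35 to -0.17). Dhcr7 did so for Trem2-/- against WT on cuprizone (-0.89 to -0.34) and Scd2 for the genotype difference in recovery against cuprizone (0.5 to 1.01). Acaca did so for WT recovery against cuprizone (-1.1 to -0.47). Scd1 did so for Trem2-/- recovery against control (-1.38 to -0.5) and for genotype by feeding time (-1.26 to -0.32). Leaving Scd1 out of the comparisons with control, or Idi1 out of the matched one, was chosen after seeing the data and changed no count called. Fads1 passed for 12 against 4 weeks with 16 added (adjusted p = 0.038) and with an intensity trend (adjusted p = 0.0359). With titled duration as a replicate block 0 members were called, and the medians were 0.15 for WT cuprizone against control and -0.22 for the genotype difference in response. In this block the controls shared a level with the 4-week libraries, so differences from a control were estimated at that level. For WT cuprizone against control, Scd2 just missed the threshold with this block, at 1.03 (limma adjusted p = 0.0556, against 0.759 without the block). Acaca, at 1.31, and Scd1, at -1.1, also had smaller adjusted p-values with the block than without it, and were not called. Among all genes this block moved the number called from 16 to 105 for WT cuprizone, 0 to 13 for Trem2-/- cuprizone, 36 to 153 for the genotypes on cuprizone, 3 to 10 in recovery, 1 to 9 for the difference in response, 0 to 7 for WT recovery against cuprizone and 0 to 19 for recovery against control in each genotype. Counting the Trem2-/- library with 2 time labels as 4 weeks in that block also gave 0 members called. Members near the table median, such as Scd1, Sqle, Stard4, Idi1 and Hsd17b7, may have compressed differences, which was not tested. The dimmer second probe had a wider range over the libraries than the first at Acaca (1.74 against 1.5), Idi1 (1.07 against 0.71) and Fdft1 (0.79 against 0.43).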
